A study of Drosophila melanogaster x Drosophila simulans with 3 samples.

Results

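Stretches of adjoining exonic regions that all gave more Drosophila melanogaster than Drosophila simulans reads were described in heads of hybrid females between the species. A run was defined as 3 or more regions whose identifiers carried consecutive numbers. Regions were selected on these reads: each had, averaged over the libraries, 50 or more reads assigned to an allele, and its log2 ratio of D. melanogaster to D. simulans reads, pooled over the 3 libraries, was at least 0.5. The rule found 177 runs with 633 of the 60040 exonic regions in the tables, or 2.50% of the 25277 regions at that depth. The ratios chose the runs, so ratios of all reads in the 3 libraries are given as a description with no test. Allele ratios are D. melanogaster over D. simulans throughout, each count raised by 0.5 before the ratio was taken, and a ratio of 0 stands for equal read numbers.

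All 3 libraries were of the same kind. The flies were virgin F1 females, 1 to 1.5 days old, born to Berlin mothers (D. melanogaster) and C167.4 fathers (D. simulans). Each library was made from polyadenylated RNA of an independent pool of 200 heads and filled a lane of its own, with paired reads of 54 bases on an Illumina GAIIX. Spread between libraries therefore covers pools and lanes together, and species and parent of origin cannot be told apart because the cross was made in 1 direction. A genomic DNA control named in the study's design was not analysed here.

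In an F1 hybrid, both alleles of a gene sit in the same nuclei and meet the same regulatory proteins, so allelic read numbers are a standard readout of differences that travel with the allele itself, such as those in promoters and enhancers. Exons of a gene are parts of shared transcripts. A difference in transcription is carried by all exons of a transcript, whereas a difference in splicing, or in how reads of an exon are placed on the species' genomes, can touch single exons. Runs of neighbouring regions are of use for this reason, since they show which imbalances extend over several exons.

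The libraries of replicates 1, 2 and 3 held 18304480, 18157586 and 20364709 allele-assigned reads, and the runs held 4.32%, 4.14% and 4.10% of them. Replicate 2 was unlike the others in how reads matched: exact-match classes held 31.3% of its assigned reads, against 63.8% and 57.8% in replicates 1 and 3. The difference was as large inside the runs, at 32.1% against 65.8% and 59.6%. Without replicate 2 the same rule gave 187 runs with 677 regions, of which 534 were shared with the 633.

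The tables name regions only by identifier. Genes were therefore assigned, after the files had been seen, by length: a region was matched when the ordered lengths of 3 consecutive regions occurred at exactly 1 place among the joined exons of the BDGP6 annotation (Ensembl). In the order of the annotation 18948 stretches matched uniquely, and in the reverse order 27 did. The match reached 263 of the 633 regions in runs (41.5%, against 47.5% of all regions at the same depth). At least 2 regions were matched in 82 runs, and in 77 of these the matched regions belonged to 1 gene. Genes are grouped below by their known roles. Apart from those in runs named by rule, they were picked after their values were seen, and no role was tested for being more frequent in runs. The gene names and BDGP6 positions rest on this match of lengths and not on sequence. The authors' genome build is not given in the sources used here, and positions run from the first to the last matched exon.

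Most runs were short and their imbalance was modest. Of the 177 runs, 113 had 3 regions, 43 had 4, 10 had 5, 8 had 6, and the longest 3 had 7, 8 and 9. The log2 ratio of a run, from its summed reads, had a median of 0.84 (1.79-fold), with quartiles at 0.71 and 1.20. The ratio was at least 1 in 57 runs, at least 2 in 15, and under 0.75 in 61. The ratio was above 0 in every library for all 177 runs and at least 0.5 in every library for 156. The median SD of a run's ratio between libraries was 0.11, and the largest was 0.50, in the run of the cytochrome P450 gene Cyp9b1.

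Single regions varied more than runs. The median ratio of the 633 regions was 0.93, 0.93 and 0.89 in the 3 libraries, against 0.10, 0.09 and 0.08 over all regions at the same depth. Of the 633, 441 were at 0.5 or more in each library, 622 were above 0 in each, and 11 were at or below 0 in at least 1. In the test of the alleles over the whole table (edgeR's quasi-likelihood test, adjusted p under 0.05), 618 of the 633 were called toward D. melanogaster. The background was 23.4% of 33303 tested regions, and nothing is read from this count because the rule used the same contrast.

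The mirrored rule, with ratios of -0.5 or less, gave 91 runs with 346 regions toward D. simulans. A ratio of 0.5 or more was itself more frequent, in 4430 regions (17.5%) against 2134 (8.44%) at -0.5 or less. Runs took up 14.3% of the first and 16.2% of the second. The count in each direction depended on where equality was placed. With ratios centred on the median of regions at this depth, 0.08, there were 117 runs toward D. melanogaster and 114 toward D. simulans, as the plot of run counts under other settings shows.

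**Figure D1:**
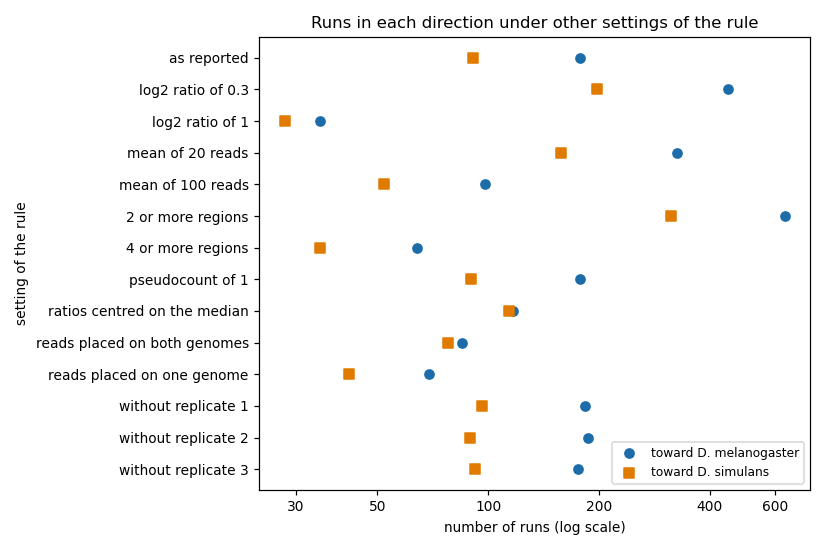
Number of runs toward D. melanogaster (blue circles) and toward D. simulans (orange squares) on a log axis, for the rule as reported and with 1 setting changed at a time. The excess of D. melanogaster runs, 177 against 91 as reported, was 117 against 114 with centred ratios and 85 against 78 with reads placed on both genomes.

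Reads were of 2 kinds. A read placed on both genomes matched one species better, so its allele came from a comparison of alignments. A read placed on one genome had no counterpart on the other. Among reads placed on both genomes, 602 of the 620 regions in runs with at least 20 such reads had a ratio above 0 (97.1%), against a background of 54.7% of 24941 regions. The ratio of these reads was 0.5 or more in 520 of the 620, and 555 were above 0 in each library. The median was 0.80, against 0.05 for all regions at the same depth. A further 13 regions had fewer than 20 such reads, 3 of them none. These reads are part of the counts that chose the runs, so the counts are a description.

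Summed over a run, reads placed on both genomes gave a ratio above 0 in 177 of 177 runs and of 0.5 or more in 155. In 174 runs the ratio was above 0 in each library. In 149 runs every region was above 0 with these reads, and in 98 every region was at 0.5 or more. The lowest such ratio, 0.01, was found in an unmatched run with lengths of 163, 199 and 1003 bases. That run had a ratio of 1.20 over all reads and 1.70 with reads placed on one genome.

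Reads placed on one genome leaned further toward D. melanogaster. Their ratio had a median of 1.00 over runs, against 0.78 for reads placed on both, and was the larger of the pair in 124 of 177 runs. In runs toward D. simulans, reads placed on one genome were further from 0 in 47 of 91. The kinds were compared region by region with the interaction of allele and kind in edgeR. Of 520 regions in runs with enough reads of each kind, 111 (21.3%) were called different, against a background of 14.0% of 20143 regions. The ratio from reads placed on both genomes was lower in 86 (background 10.0%) and higher in 25 (background 3.97%), and the called regions lay in 78 runs. In runs toward D. simulans 27 of 266 were called (10.2%). The median difference, reads placed on both genomes minus reads placed on one, was -0.10 over the tested regions in runs. It was -0.07 over all tested regions and 0.02 in runs toward D. simulans, so a lean of this direction was not confined to the runs described. Since regions were chosen for a high ratio over all reads, a chance excess in 1 kind favours the choice of a region, and how much of the difference comes from this was not tested.

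**Figure D2:**
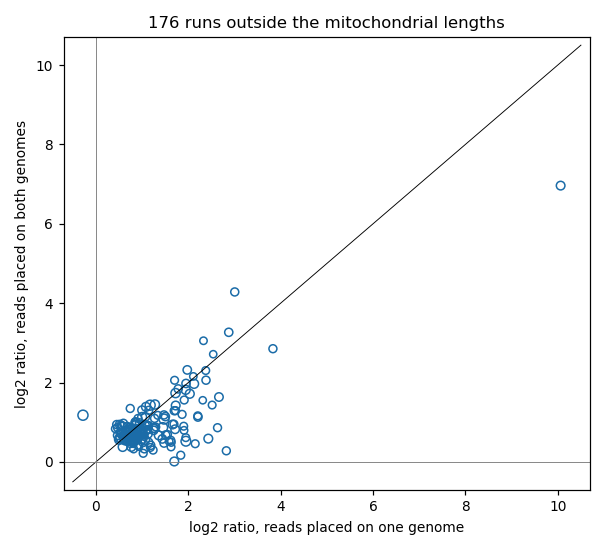
Pooled log2 ratio of each run from reads placed on one genome (horizontal) and on both genomes (vertical), for the 176 runs other than the mitochondrial one, with larger circles for runs with more reads and a line of equality. All runs lie above 0 on the vertical axis, and 1 run, at -0.28 and 1.18, lies below 0 on the horizontal axis.

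The choice of runs was also read in a library that took no part in it. Runs were formed on 2 libraries with the same limits, which gave 183, 187 and 175 runs when replicates 1, 2 and 3 were left out. In the library left out, 98.0%, 96.3% and 97.9% of the regions had a ratio above 0, against backgrounds of 57.5%, 57.0% and 56.5%. Ratios of 0.5 or more were found in 79.7%, 81.7% and 80.0% of the regions, against 21.5%, 21.4% and 19.0%. The median in the library left out was 0.88, 0.92 and 0.83, close to the 0.86, 0.89 and 0.87 in the libraries used. All 183 and all 187 runs were above 0 in replicates 1 and 2, and 174 of 175 in replicate 3, where the lowest was -0.04.

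Regions at 0.5 or more in the other libraries but outside runs were at 0.5 or more in 71.0%, 68.8% and 65.2% of cases in the library left out. Their median there was 0.75, 0.72 and 0.67, against 0.77, 0.76 and 0.77 in the libraries used. These regions were also shallower. With all 3 libraries the median depth was 139 reads in regions at 0.5 or more outside runs, against 207 in runs. The part of depth and of ratio in how often regions repeated was not tested. Every library shares the references on which reads were placed, so this comparison bears on the spread between libraries and not on read placement.

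**Figure D3:**
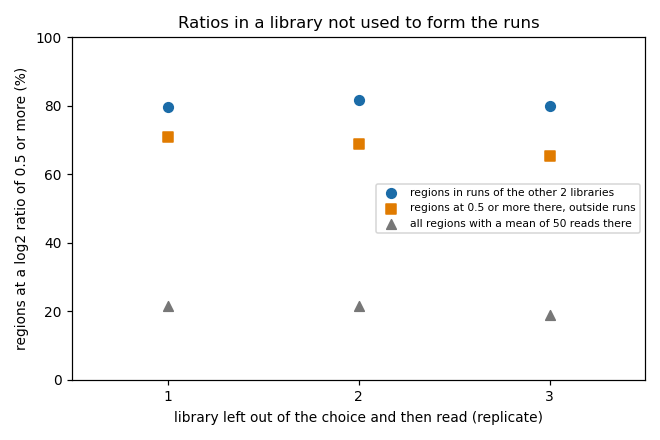
Percent of regions with a log2 ratio of 0.5 or more in the library left out, for regions in runs formed on the other 2 libraries (blue circles), for regions at 0.5 or more there but outside runs (orange squares) and for all regions with a mean of 50 reads there (grey triangles). Runs gave 79.7% to 81.7%, and all regions gave 19.0% to 21.5%.

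The run with the most reads and the largest ratio matched mitochondrial exons. Mitochondria and their genome are passed on by the mother, here D. melanogaster. The run began at F7_SI and its 3 regions had lengths of 756, 1685 and 419 bases. They matched the blocks of mt:CoII with a lysine tRNA, of mt:ATPase8, mt:ATPase6 and mt:CoIII with an aspartate tRNA, and of mt:ND3 with a glycine tRNA. All of these protein genes encode subunits of the respiratory chain or of ATP synthase. Replicate 1 gave 220015 D. melanogaster and 57 D. simulans reads, replicate 2 gave 189551 and 68, and replicate 3 gave 179533 and 45. The D. melanogaster share was 99.97% ± 0.0060 (SD, n = 3) and the log2 ratio was 11.75. Of the regions with a mean of 50 reads that the length match placed on the mitochondrial genome, 8 of 8 were at 0.5 or more, and 3 lay in a run. Mitochondrial regions that the match did not reach, if any, are not in this count. This run held 589269 of the reads in runs. Without it, the D. melanogaster share of reads in runs was 67.7%, 67.6% and 67.7% in the 3 libraries, against 76.7%, 75.8% and 74.7% with it.

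The longest run matched Herc4, which encodes a HERC-type ubiquitin ligase, at 3L:1314473-1317785 in BDGP6. It began at F20829_SI and held 9 regions with 9386 reads, 7 of them matched to Herc4. The run's ratio was 1.67, 1.58 and 1.48 in the 3 libraries, with a D. melanogaster share of 74.9% ± 1.28 (SD, n = 3). Every region was above 0 in every library. Region ratios ran from 0.59 to 2.78, in order along the run 1.62, 1.41, 1.53, 1.92, 2.78, 0.91, 1.12, 1.19 and 0.59. The highest, of 262 bases, had 349 D. melanogaster and 40 D. simulans reads in replicate 1, 373 and 59 in replicate 2, and 373 and 60 in replicate 3. In that region alone the kinds of reads differed, at 1.91 with reads placed on both genomes and 3.18 with reads placed on one (difference -1.26 ± 0.28 SE, edgeR adjusted p = 0.00057). The last matched Herc4 exon lay outside the run with a mean of 45.0 reads and a ratio of 0.94.

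Among immune and antiviral genes was the run with the highest ratio of the 5 longest. The gene pst (pastrel), known for resistance of flies to Drosophila C virus, had all 6 of its matched regions in 1 run at 3L:7357275-7360263. The ratio of this run was 2.00, 2.10 and 2.07, with a share of 80.6% ± 0.605 (SD, n = 3) over 22651 reads. Its largest region, of 1101 bases, gave 4078, 3979 and 4373 D. melanogaster reads against 880, 806 and 828 D. simulans reads. Region ratios ran from 1.25 to 2.42. All 5 adjoining pairs in this run were called different in edgeR's interaction of allele and region, with adjusted p from 5.8e-09 to 0.04996, although all 6 regions were above 1 with all reads.

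PGRP-LA, of the peptidoglycan recognition protein family, had 5 matched regions in a run of 6 with ratios of 1.44, 1.36 and 1.21 in the 3 libraries. Tep2, of the thioester-containing proteins of insect immunity, had 4 matched regions in a run at 0.74, 0.76 and 0.63, and its other 3 regions with a mean of 50 reads were at 0.48, 0.64 and 0.65. Stat92E, the transcription factor of the JAK/STAT pathway, had 4 matched regions in a run at 0.86, 0.80 and 0.80. Of these, a 258-base region stood at 2.06 and the others at 0.52 to 0.65, and the 258-base region was at 0.45 with reads placed on both genomes. The Stat92E exon with the most reads, of 1031 bases, lay outside the run at 0.32, 0.02 and 0.16 in the 3 libraries, and a 413-base exon outside it stood at -0.46, -0.35 and 0.00.

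Arr2, CarT and Hdc act in the light response or in signalling by histamine, the transmitter of fly photoreceptors. Arr2 encodes arrestin 2, which binds activated rhodopsin and ends its signalling. Its run had 3 regions of 379, 195 and 967 bases, the last 2 matched to Arr2 at 3L:8647708-8648936, and 262451 reads. The largest region gave 33154, 35445 and 41673 D. melanogaster reads and 17094, 18764 and 21955 D. simulans reads. The run's ratio was 0.94, 0.89 and 0.91, with a share of 65.3% ± 0.385 (SD, n = 3). Of the 177 runs, this was the 1 in which the kinds of reads had opposite directions, namely 1.18 from 218633 reads placed on both genomes and -0.28 from 43818 reads placed on one. All 3 regions were called different between the kinds, and in the largest the difference was 1.85 ± 0.07 (SE, edgeR adjusted p = 5.6e-26).

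CarT encodes the carcinine transporter that photoreceptors use to recover histamine. Its 4 regions in a run stood at 0.73, 0.78, 0.83 and 2.67, and the run at 0.93, 0.82 and 1.12 in the 3 libraries. The 259-base region at 2.67 stood at 0.75 with reads placed on both genomes, beside 0.55 to 0.73 in the other CarT regions. Hdc encodes histidine decarboxylase, which makes histamine. It had 2 regions in a run, at 0.59 and 0.51, while 3 more of its regions with a mean of 50 reads stood at -0.40, 0.48 and 0.13. The largest Hdc exon, of 1768 bases, gave -0.07, 0.36 and 0.10 in the 3 libraries. For Hdc the run covered part of the gene, and for CarT it covered every matched region with enough reads.

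Cytochrome P450 genes, whose products oxidise lipids, hormones and foreign compounds, had matched regions in 4 runs. Cyp28d1 had all 5 matched regions in a run at 1.12, 1.01 and 1.05, where 4 stood at 0.79 to 1.02. The fifth, a 450-base block shared with the annotated gene CG7742, was at 2.12 (1.05 with reads placed on both genomes), and its reads cannot be told apart between the genes without strand. Cyp4p3 had 4 matched regions in a run, at 1.13 to 1.79, and the run stood at 0.94, 1.11 and 1.03 with an unmatched region of 483 bases. Cyp9b1 had 3 at 1.20, 1.87 and 2.47, and its run varied most between libraries of all 177, at 1.15, 2.14 and 1.77. The 2796-base block of Cyp9b1 overlaps the annotated gene esn, and the reads there cannot be told apart without strand. Cyp6u1 had 1 region, of 1213 bases, in a run, at 0.95, 0.67 and 0.61 in the 3 libraries. Over the family, 13 of 80 regions with a mean of 50 reads lay in runs toward D. melanogaster (16.3%, against 2.19% of all matched regions at that depth) and 11 in runs toward D. simulans. At 0.5 or more were 25 of the 80 and at -0.5 or less 22, so imbalance of this size was found in both directions. Related P450 genes lie close together, and how reads that match several genes were counted is not given in the sources used here.

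Among other enzymes, Tat (tyrosine aminotransferase) had an even run of high ratio. Its 4 regions, at X:14261223-14265701, stood at 1.87, 1.69, 1.88 and 1.99, and no adjoining pair was called different. The run's ratio was 1.95, 1.90 and 1.81, with a share of 78.7% ± 0.869 (SD, n = 3), and was nearly the same with reads placed on both genomes (1.82) and on one (1.94). All 4 exon blocks are shared with the annotated gene CG46317, and the 1311-base block, at 1.99, also with CG13404. The reads there cannot be told apart between these genes. Acox57D-p, a peroxisomal acyl-CoA oxidase, matched 4 of the 7 regions of the third longest run. That run stood at 0.80, 1.14 and 0.79 over 2548 reads, and its first matched region was at -0.10, 1.65 and 0.56 in the 3 libraries. The 3 regions after the run, of 245, 163 and 293 bases, leaned toward D. simulans, at -2.42, -1.21 and -1.01. Lengths of 163 and 293 bases also occur, in this order, within the run. The 3 regions before the run stood at -0.21, 0.435 and 1.12.

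The sand gene, which encodes a leak potassium channel, had 3 regions at 2.79, 2.33 and 2.94 in a run with 615 reads. That run stood at 2.48, 2.44 and 3.03 in the 3 libraries, with 86.3% ± 2.58 D. melanogaster reads (SD, n = 3), and at 2.71 with reads placed on both genomes. NKCC, a sodium, potassium and chloride cotransporter, had 4 regions in a run at 1.38 to 1.51. Its 2 regions outside the run with a mean of 50 reads stood at 1.95 and 1.27, and its 3 shallower regions with a mean of at least 35 reads at 1.54, 1.67 and 1.89. The whole matched stretch of NKCC thus had ratios above 1 wherever 35 or more reads were found.

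The calcium-activated chloride channel gene subdued went the other way in part. It had 4 regions in a run at 0.55 to 1.68, a 308-base region just before the run at -2.20, -1.83 and -1.68 in the 3 libraries, and a 161-base region farther on with 163 D. melanogaster and 0 D. simulans reads. With reads placed on both genomes the 308-base region stood at -1.16.

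Genes of signalling, protein turnover and the cytoskeleton had ratios from near the limit to well above it. LUBEL, the ligase of linear ubiquitin chains, had 4 matched regions in a run at 0.67, 0.80 and 0.42, its ratios running from 0.57 to 0.81. Egfr, the receptor of epidermal growth factor ligands, had 3 at 0.71, 0.58 and 0.52. Vap33, a tether of endoplasmic reticulum membranes, had 3 at 0.80, 0.52 and 0.50. TBPH, the fly TDP-43, an RNA-binding protein, had 3 at 0.52, 2.10 and 0.54, and the 205-base region at 2.10 was at -0.07 with reads placed on both genomes. Gel, the actin-severing protein gelsolin, had a 1706-base region at 1.58, 1.56 and 1.73 in the 3 libraries, while its 3 regions before the run stood at 0.21 to 0.53. The other Gel region in the run, of 126 bases, stood at 6.32, with 837 D. melanogaster and 10 D. simulans reads. Of these, 749 and 9 were placed on both genomes. CG42402 had 6 regions in a pair of runs at 1.14 to 2.86, parted only by a 144-base exon with a mean of 46.7 reads and a ratio of 1.52.

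**Figure D4:**
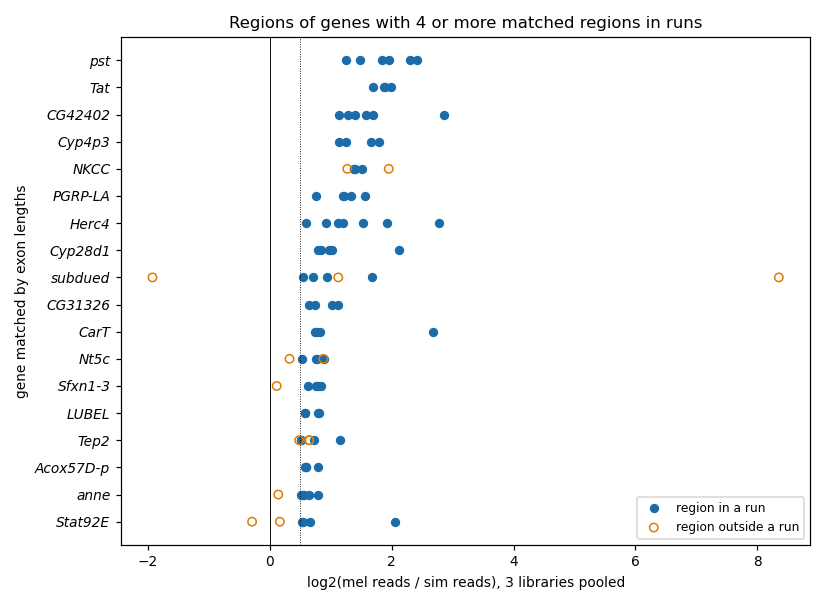
Pooled log2 ratio of each region with a mean of 50 reads in 18 genes with 4 or more matched regions in runs. The genes were chosen after their values were seen, and CG46317, which has the same blocks as Tat, is not drawn. Filled circles are 82 regions in runs and open circles are 14 outside. The regions of pst, Tat, Cyp4p3, NKCC and CG42402 all lie above 1, while subdued spans -1.93 to 8.35.

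The other runs with the most reads were unmatched in part or whole. A run of 111, 126 and 221 bases with 201438 reads stood at 1.16, 1.34 and 1.35, and its 126-base region gave 9478, 9534 and 12005 D. melanogaster reads against 7, 135 and 14 D. simulans reads. A run of 5 regions with 191028 reads, 3 of them matched to CG2233 at X:8036220-8037212, stood at 1.30, 1.31 and 1.52. Its 77-base region gave 5416 D. melanogaster reads and 1 D. simulans read, and the other 4 regions stood at 1.05 to 1.53. A run of 265, 366 and 914 bases with 106505 reads stood at 1.04, 1.07 and 1.00, but at 0.52 with reads placed on both genomes and 1.95 with reads placed on one.

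After the mitochondrial run, the largest ratio was that of an unmatched run of 188, 145 and 887 bases. Its ratio was 7.91, 7.64 and 7.34 with 45 D. simulans reads among 9079, and 6.96 with reads placed on both genomes. All 3 of its regions stood above 7. A run of 424, 194, 1011 and 300 bases followed at 3.53, 3.27 and 3.78 in the 3 libraries, then the run of CG1979 at 3.16, 3.26 and 3.30, and one of 229, 118 and 330 bases at 2.65, 2.88 and 3.32. The CG1979 regions were uneven, at 3.33, 5.25 and 0.54.

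The 8-region run, second in length and unmatched, had the narrowest range of region ratios among the 5 longest. Its regions stood at 0.60 to 1.04, no adjoining pair was called different, and the run was at 0.88, 0.88 and 0.75 over 5436 reads. The fourth in length, 6 regions with 68671 reads, was uneven, from 0.88 to 8.47. Its last 2 regions, of 228 and 174 bases and 82.0% and 84.5% identity between the species, stood at 4.44 and 8.47 with all reads. With reads placed on both genomes the first was at 0.10, from 117 D. melanogaster and 109 D. simulans reads, and the second had only 3 and 5 such reads, too few for a ratio.

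The smallest ratios lay just over the limit. They belonged to an unmatched run of 452, 165 and 1385 bases at 0.55, 0.49 and 0.58 in the 3 libraries and to the run of Aldh, an aldehyde dehydrogenase, at 0.54, 0.60 and 0.54. The next were an unmatched run of 446, 281 and 788 bases at 0.41, 0.75 and 0.53, a run across mRpL40 and mgr at 0.60, 0.84 and 0.32, and that of CG16974 at 0.52, 0.45 and 0.71. All but the Aldh run thus fell below 0.5 in at least 1 library. Most of the 80282 reads of the Aldh run came from its unmatched region of 1434 bases, with 41613 D. melanogaster and 28512 D. simulans reads. Its 2 regions matched to Aldh stood at 0.58 and 0.88. Over all 3 matched Aldh regions with a mean of 50 reads, inside and outside the run, the ratio was 0.09.

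**Figure D5:**
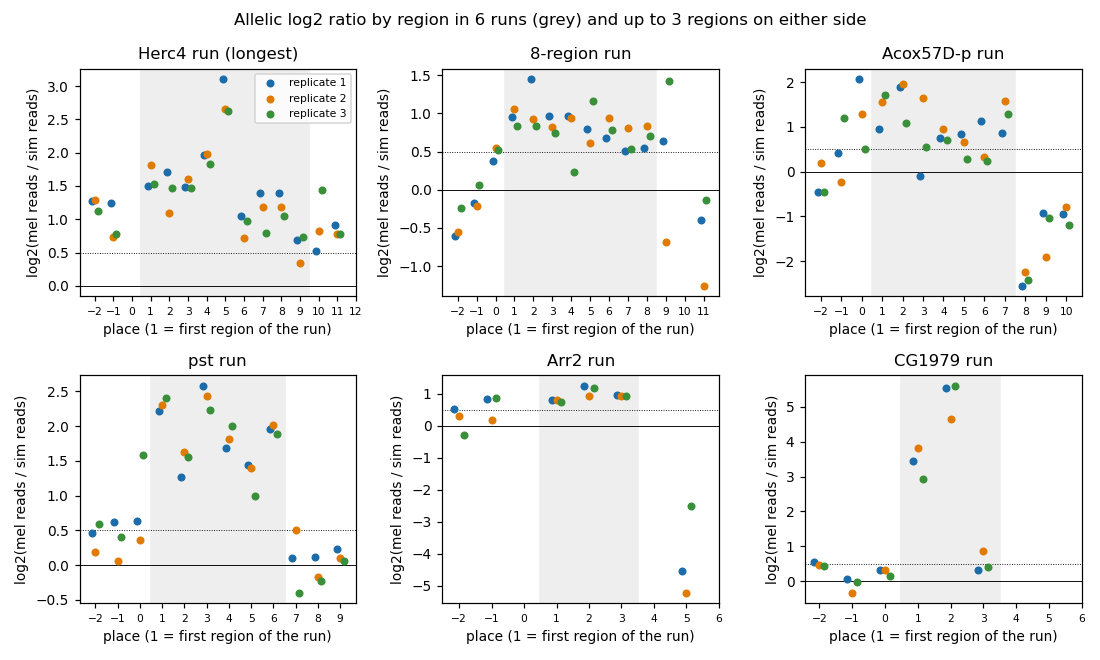
Allelic log2 ratio of each region in the 3 libraries (colours) for 6 runs, shaded, and for up to 3 regions on either side with a mean of at least 10 reads, with lines at 0 and at 0.5 (dotted). The 8-region run is even at 0.60 to 1.04 with the libraries pooled, whereas the Herc4, pst and CG1979 runs change from region to region.

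Neighbouring regions were called different about as often within runs as among all adjoining pairs. Of 456 adjoining pairs in runs, 122 were called different in edgeR (26.8%), close to the background of 28.5% of 15457 adjoining pairs at this depth. The median absolute difference was 0.28 in runs and 0.30 in all, though the limit of 0.5 narrows the range within a run. In 98 runs no pair was called, and in 79 at least 1 was. Where both regions matched 1 gene, 40 of 156 pairs in runs were called (25.6%), against 22.4% of 6084 such pairs overall. Pairs across different genes were called in 43.2% of 132 cases in all, and only 3 of them lay in runs.

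Very large ratios were mostly those of single regions within a run. Outside the mitochondrial run, 20 regions in 15 runs had a ratio of 4 or more, with a median length of 181 bases. For 14 of the 20, the rest of the run had a ratio under 2. Fewer than 10% of the reads were placed on both genomes, unassigned reads included, in 8 of the 20. The median was 25.6% in the 20, against 62.7% in all regions of runs and 72.8% in all regions at this depth. An example is a 117-base region matched to Su(var)205, the heterochromatin protein HP1, with 181 D. melanogaster reads and 1 D. simulans read and 1.64% of its reads placed on both genomes. The rest of that run stood at 1.17.

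Past the ends of runs, ratios fell but still leaned the same way. Of the 354 regions next to a run, 193 had a mean under 50 reads and could not have joined the run whatever their ratio. The 161 others were by construction under 0.5, and 111 of them were above 0 (68.9%, against 49.8% of the 20847 regions under 0.5 at this depth), with a median of 0.15 against 0.00. Among 94 flanking regions with a mean of 10 to 50 reads, 72 were above 0 (76.6%, against 55.0% of 12404) and 44 at 0.5 or more (46.8%, against 27.8%). The 29 of these that matched the gene at the run's end had a median of 0.67, and 27 were above 0.

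The limits of the rule cut through a continuum. The lowest ratios in runs were 0.503, 0.504 and 0.504, and the highest just outside were 0.498, 0.497 and 0.495. The first of those outside, of 2248 bases with 2334513 D. melanogaster and 1653247 D. simulans reads, adjoined a run. The lowest mean depths in runs were 50.3, 50.3 and 50.7 reads, and adjoining regions at 0.5 or more had been left out at 49.3, 46.7 and 46.7. Of all pairs of runs, 3 were parted by a single region, including a pair of runs in anne on the fourth chromosome, where a 110-base exon stood at 0.14.

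Genes with several exons in runs were also read in their regions outside runs. Of the 81 genes with at least 2 matched regions in runs, 44 had no other region with a mean of 50 reads. Of the 37 genes with such regions, all of these were above 0 in 25 and at 0.5 or more in 6. In 12 genes at least 1 was below 0, and in 2, Aldh and subdued, at least 1 was at -0.5 or less. The 94 regions of these genes outside runs had a median of 0.34, with 76 above 0 (80.9%, against 58.6% of all regions at this depth). In Aldh, a 502-base exon stood at -0.63, -0.54 and -0.49, but at 0.27 with reads placed on both genomes. Among the 1969 genes with 3 or more matched regions at this depth, 47 had all of them at 0.5 or more and 41 had all at -0.5 or less.

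Matched runs were spread over the chromosomes at similar rates. Of the matched regions at this depth, 2.26% lay in runs on X, 2.23% on 2L, 2.28% on 2R, 1.87% on 3L, 2.23% on 3R and 1.84% on chromosome 4. Both species' X chromosomes were present in these females.

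Regions in runs differed from other regions in sequence measures that the rule did not use. Their median identity between the species was 95.85%, against 96.65% for all regions at this depth and 96.06% for regions in runs toward D. simulans. Identity was under 95% in 33.5%, against 17.3% overall and 29.8% in D. simulans runs. Only 7 regions (1.11%) were over 99% identical, against 2.54% overall. Regions in runs were shorter, with a median of 375 bases against 502 overall and 322 in D. simulans runs. Regions at 0.5 or more outside runs, toward D. melanogaster as well, had a median identity of 96.12%, with 28.3% under 95%, and a median length of 433 bases. Lower identity and shorter length were thus found in runs of either direction and in regions of high ratio outside runs, and their part in the ratios was not tested.

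Regions in runs also had fewer unassigned reads. The median share of reads that matched both species equally was 9.03%, 9.42% and 10.1% per region of a run in the 3 libraries, against 16.7%, 17.1% and 17.3% for all regions at this depth and 9.07%, 10.1% and 9.93% in D. simulans runs. Reads placed on one genome made up a median of 43.2% of assigned reads, against 34.8% for all regions at this depth and 38.5% in D. simulans runs. In regions at 0.5 or more outside runs this share was higher, at 46.0%, and the unassigned share was 13.2%, between that of runs and that of all regions. The deposited tables also hold a coverage value per region and species whose origin is not stated. Its log2 ratio had a median of 0.00 in runs, -0.68 over all regions at this depth and -1.41 in D. simulans runs, and 84.2% of the regions in runs lay above the overall median, as did 73.8% of the regions at 0.5 or more outside runs. Whether this coverage is independent of the reads counted here is not given in the sources used here.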

How the data were processed

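The authors deposited raw, unnormalised read counts per exonic region and library, in 4 classes per allele and 2 unassigned classes, per the file headers. Bowtie is the aligner in the submitters' processing notes, while no source used here gives its version, the build or the annotation. The deposited percent identity and percent of altered positions, a coverage signal, and region lengths describe regions, not libraries, per the file headers.

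The classes of each allele were summed. Pooled ratios used a pseudocount of 0.5. Tests were edgeR's quasi-likelihood F tests (edgeR 4.0.16, R 4.3.3) over the whole table, adjusted by the Benjamini-Hochberg method and called at 0.05. The test of alleles used regions with a mean of 20 reads and replicate as a block, since both alleles of a library came from 1 RNA pool. Interaction tests compared alleles between read kinds (mean of 20 reads of each) and between adjoining regions (mean of 50 in each). No scaling was applied between alleles. The search for runs was tested on a made set of counts with known runs, and the edgeR fits on simulated counts with known ratios. The match of lengths to genes and the DESeq2 fits were not tested in this way. The number of libraries, 3, limits the precision, and reads carried no molecular identifiers. With library as a block, p-values rest on how allele ratios varied between libraries, in which pool and lane are not separated.

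The members and lists were chosen with earlier results of these data known. Runs named by rule were the 5 longest, the 5 with the most reads, and the 5 largest and 5 smallest ratios. Other genes were named after their values were seen. The plan had stated that no gene would be named from the order of an annotation, and lengths were used instead. Alternatives covered the limits, pseudocount, centring, read kind, scaling, DESeq2 1.42.0, filters, the block and each replicate left out.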

Additional observations from a re-analysis of the deposited data

Results flagged for a closer look

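Unassigned reads, which enter no ratio above, were found at the ends of some runs where alleles were hardly counted. Of the 354 regions next to a run, 9 had a mean of at least 20 unassigned reads but under 1 allele-assigned read. These regions, chosen for that depth, held 3767 unassigned reads in all, which is a description. The share of such regions away from runs was not counted, so nothing here ties them to runs. The series has no control group of RNA libraries to set this against.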

How the results depend on the processing

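The rule's limits set the number of runs. Against 177 runs with 633 regions, there were 448 and 1640 at a ratio of 0.3, 35 and 129 at a ratio of 1, 326 and 1188 at a mean of 20 reads, and 98 and 344 at a mean of 100. Runs of 2 or more regions numbered 640 with 1559 regions, and runs of 4 or more numbered 64 with 294. Centred ratios gave 117 runs with 426 regions. Reads placed on both genomes alone gave 85 runs with 303 regions, 251 of them shared with the 633, and reads placed on one genome gave 69 with 234, of which 169 were shared. These settings use fewer reads under the same depth limit. Leaving out a replicate gave 175 to 187 runs with 620 to 677 regions. Of 633 regions, 618 were called for the alleles, 581 without the replicate block and 596 with TMM scaling. With the DESeq2 Wald test 492 were called, and without a replicate 565 to 582. Nothing is read from these counts, since the rule used the same contrast. Over the whole table, calls toward D. melanogaster numbered 7799 of 33303, 5471 without the block, 6124 with TMM scaling and 4047 with DESeq2. Without a replicate they numbered 6118 to 6227. The DESeq2 Wald test called 71 regions between read kinds (111 in edgeR) and 80 adjoining pairs (122 in edgeR), and also fewer over the whole table, 7.58% against 14.0% and 16.0% against 28.5%. Leaving out a replicate gave 88 to 94 and 93 to 107. Ratios above 0 with reads placed on both genomes numbered 576 to 608 over all settings. In the library left out, 97.4% of regions were above 0 on average, from 96.3% to 98.0%. Among the 19 runs named by rule, only the Arr2 run reversed, at -0.28 with reads placed on one genome. Ratios of 11 others moved with these reads by at least the SD between libraries. With reads placed on both genomes 14 of the 19 moved by that much, and with the median over regions 5 did. With any replicate left out, all 19 stayed within it. With 4 consecutive lengths 60 runs were matched to genes in place of 82. TMM scaling moved all calls from 7799 toward D. melanogaster and 4052 toward D. simulans to 6124 and 5398.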

Other observations

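Matched regions of ribosomal protein, glutathione transferase and glucuronosyltransferase genes at this depth all lay outside runs. P450 regions, at 16.3%, and mitochondrial regions, at 37.5%, lay in runs toward D. melanogaster more often than all matched regions. Of 41 ribosomal protein regions (RpL and RpS) with a mean of 50 reads, 0 lay in runs in either direction, with a median ratio of 0.00, 6 at 0.5 or more and 6 at -0.5 or less. Likewise 0 of 11 glutathione transferase regions (Gst) and 0 of 16 glucuronosyltransferase regions (Ugt) lay in runs. These families were picked by gene symbol after the data were seen, and with 2.19% of matched regions in runs, no difference is read from counts of 0 among so few regions.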
